A study of Rattus norvegicus with 6 samples.

Results

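The genes described here are the local renin-angiotensin system of the rat aorta. They are Agt, Ace, Agtr1a, Agtr1b, Agtr2, Mas1, Atp6ap2 and Lnpep, taken by symbol, and all 8 were found among the 24005 symbols of the deposited expression table. The libraries came from rats with chronic kidney disease, in which 5/6 nephrectomy had been done in a pair of operations a week apart and a diet with 1.2% phosphorus was given to hasten calcification. The exosome group (3 libraries) had received ANCR/E7-EXO, the engineered vesicles under study, by tail vein at 10 mg/kg and 5-day intervals. The saline group (3 libraries) had received an equal volume of saline over 13 weeks. The sources used here give no strain, age or sex, and no aorta without kidney disease was analysed here, so the values describe treated against untreated disease only. The labels call the tissue aorta, while the series' design text also speaks of thoracic aorta.

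Angiotensinogen, the product of Agt, is cut to angiotensin I, which angiotensin-converting enzyme on the endothelial surface turns into angiotensin II. Angiotensin II contracts smooth muscle and promotes matrix growth through AT1 receptors, which rats carry as a pair of genes, while AT2 and Mas receptors are generally held to oppose these effects. Vessel walls hold a local form of this system, fed partly by perivascular fat, and it is a standard drug target in kidney disease.

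Levels are given as FPKM, reads scaled to gene length and library total, so they may be compared between genes. Atp6ap2 was the most abundant member (mean of 75.4 FPKM over the 6 libraries), followed by Ace (36.1), Agtr1a (7.11), Agt (5.37), Lnpep (2.95), Agtr1b (2.66), Agtr2 (2.30) and Mas1 (0.544). Atp6ap2 lay above Ace, and Ace above each other member, in 6 of 6 libraries. Below them the order was less fixed. Agtr1a exceeded Agt in 5 of 6 libraries, Agt exceeded Lnpep in 5, Lnpep exceeded Agtr1b in 5, and Agtr1b exceeded Agtr2 in 3, so those neighbours were not separated beyond their spread. Mas1 was the lowest member in 6 of 6. Smooth muscle markers had the highest sum of the 10 marker lists, at 13468 to 21219 FPKM over 6 genes. Such sums do not measure the share of cells. The endothelial, adventitial fibroblast and macrophage markers looked for were all detected.

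The receptor genes differ in the DNA before their starts, which is shown because Agtr1a and Agtr1b encode nearly the same protein yet had unlike levels across these libraries. Promoters of 7 members were present in the RefSeq table for the GRCr8 build, and Agt was not among them. The sequences run 5′ to 3′ on the gene's strand and stop before the annotated gene. The Agtr1a stretch is shorter because its annotated gene begins upstream of the start used in the table. Capitals mark matches, on either strand, to TATAA (the TATA box), to CCAAT (the CCAAT box) or to GGGCGG (a GC box).
Agtr1a, chr17:34435524-34435682, minus strand: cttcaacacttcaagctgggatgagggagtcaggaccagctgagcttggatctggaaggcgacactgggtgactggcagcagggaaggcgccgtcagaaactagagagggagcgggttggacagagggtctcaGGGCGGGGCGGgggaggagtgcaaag
Agtr1b, chr2:104849263-104849512, minus strand: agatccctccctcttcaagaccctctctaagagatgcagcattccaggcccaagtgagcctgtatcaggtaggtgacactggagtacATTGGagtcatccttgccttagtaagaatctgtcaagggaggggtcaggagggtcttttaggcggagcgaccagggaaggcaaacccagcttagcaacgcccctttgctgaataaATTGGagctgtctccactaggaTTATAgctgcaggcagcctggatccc
Agtr2, chrX:116914070-116914319, plus strand: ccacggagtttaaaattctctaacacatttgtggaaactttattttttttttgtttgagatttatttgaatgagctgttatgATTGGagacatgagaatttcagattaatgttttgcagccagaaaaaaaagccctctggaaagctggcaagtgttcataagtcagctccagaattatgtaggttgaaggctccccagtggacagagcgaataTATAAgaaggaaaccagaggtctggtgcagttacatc

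Over the 250 bases before the table's start, Agtr1a and Agtr1b were identical at 166 of 288 columns of a global alignment (57.6%). The share was 46.9% for Agtr1a and Agtr2 and 48.5% for Agtr1b and Agtr2. No unrelated promoters were aligned, so the share to be had without kinship is not known here. Each receptor gene of the AT1 and AT2 types held a TATAA match. In Agtr1a it began 45 bases before the table's start, in the part not printed, which lies inside the annotated gene. In Agtr1b it began 26 bases before the start and was on the opposite strand (printed as TTATA), and in Agtr2 it began 37 bases before. Of the 7 members, 4 held TATAA (Ace and the receptors just named), where 24.0% of 33469 promoters of the same length did. In Ace the TATAA matches on the opposite strands overlap. GGGCGG was found in 4 members (Ace, Agtr1a, Atp6ap2 and Lnpep; 30.5% of all promoters), among them Agtr1a but neither Agtr1b nor Agtr2. CCAAT was found in 3 (Agtr1b, Agtr2 and Atp6ap2; 34.0%). No member held the CArG box that binds serum response factor (1.5% of all) or AGAACA, a half-site of the glucocorticoid receptor (17.5%). These matches describe letters in a window and say nothing of binding.

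The comparison asked whether the exosomes went with a different level of these genes. None of the 7 members above the expression minimum passed limma's Benjamini-Hochberg threshold of 0.05, none had an unadjusted p under 0.05 (16.0% of all genes tested did), and none passed in limma-voom on recovered reads. Over all 11742 genes tested, limma called 0.00852% (1 gene, Zbtb16). No member had groups that did not overlap, where 21.1% of all genes tested did. Of the 7, Ace and Atp6ap2 had higher means on the log scale with exosomes and the other 5 had lower ones. Their median log2 difference was -0.29, beside -0.07 for all genes tested, of which 39.3% were higher. Nothing in the labels assigns a separate animal to every library, and p-values therefore reflect variation among the libraries, which may be technical.

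**Figure D1:**
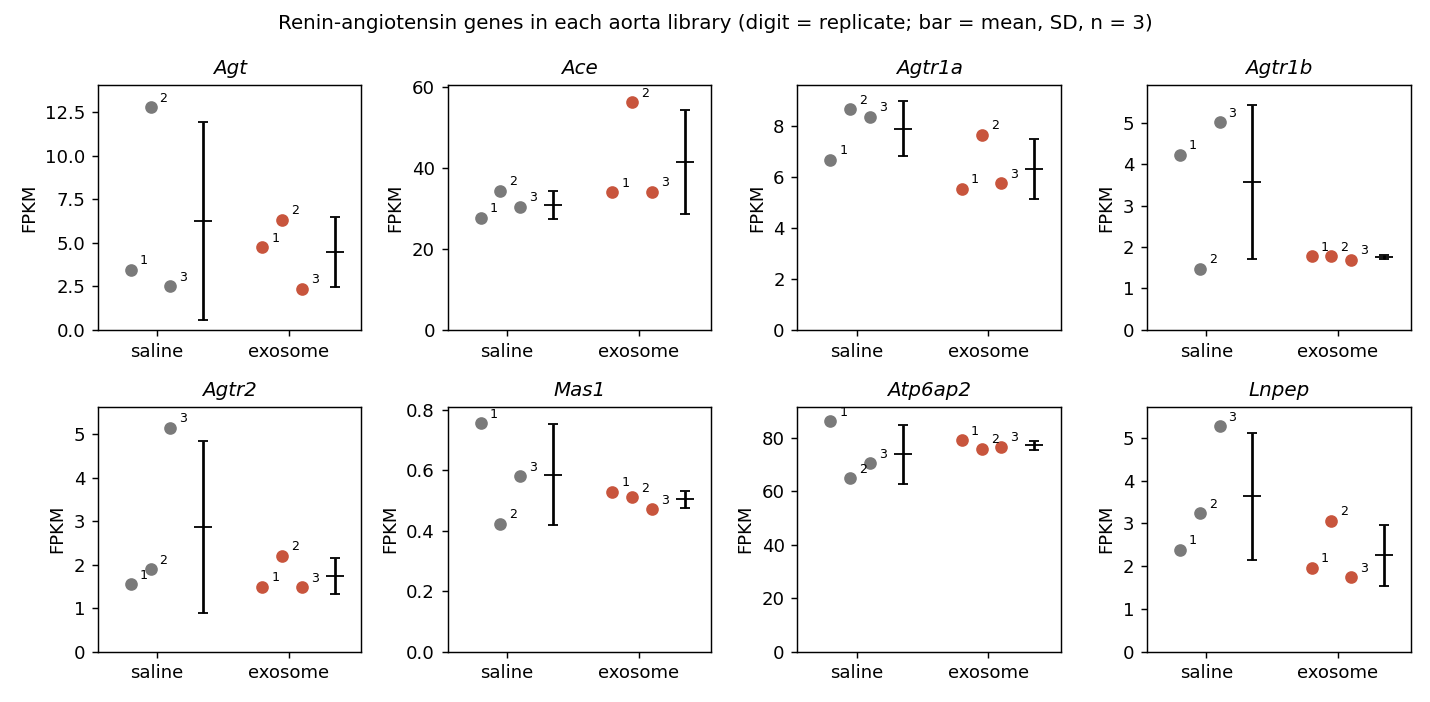
FPKM of the 8 renin-angiotensin genes (vertical axis, linear from 0, own scale per panel) in the saline and exosome libraries; each point is a library with its replicate number and the black bar is the mean with SD, n = 3. The groups overlap in every panel, Agt is highest in saline 2, Ace in exosome 2, and Agtr2 and Lnpep in saline 3.

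Agt, which encodes the precursor of all angiotensins, stood at 3.46, 12.8 and 2.52 FPKM in saline 1, 2 and 3 and at 4.74, 6.33 and 2.36 FPKM in exosome 1, 2 and 3. Saline 2 lay far above the other saline libraries, and the exosome values fell within the saline range except for exosome 3 just under it. The means were 6.26 ± 5.68 and 4.47 ± 1.998 FPKM (SD, n = 3 each). The log2 difference, exosome minus saline on log2(FPKM + 1), was -0.21, with a 95% interval from -1.42 to 1.01 and an adjusted p of 0.853 in limma. Its sign rested on saline 2 and exosome 3. The difference was 0.39 without the former and 0.11 without the latter.

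Adipocyte markers shared the highest libraries of Agt but not the order of the rest. Their summed level over 10 genes was 439.7, 1389 and 498.9 FPKM in saline 1 to 3 and 499.2, 869.4 and 564.1 FPKM in exosome 1 to 3, so saline 2 and exosome 2 were the 2 highest for both. Exosome 3 came next for the markers but was lowest for Agt, and saline 1 was lowest for the markers but not for Agt. None of the 10 markers was at 0 throughout. With exosomes 1 was higher and 9 were lower (39.3% of all genes tested were higher), all overlapping, and limma called none. Fabp4, at 220.8 to 782.2 FPKM, weighed most in the sum. Adipoq, the adiponectin gene, ranged from 35.1 to 147.6 FPKM, and Ucp1, the brown fat uncoupling protein, from 0.0594 to 14.98 FPKM. Per 100 FPKM of these markers Agt stood at 0.788, 0.921 and 0.505 FPKM with saline and at 0.950, 0.728 and 0.418 FPKM with exosomes. This ratio overlapped between the groups (exact permutation test, two-sided, p = 0.8, n = 3 each). In bulk tissue, fewer cells of a type and less RNA per cell cannot be told apart. The part of fat in the Agt values was not tested.

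Ace, the converting enzyme that also degrades bradykinin, stood at 27.7, 34.4 and 30.4 FPKM in saline 1, 2 and 3 and at 34.0, 56.1 and 34.1 FPKM in exosome 1, 2 and 3. Exosome 2 lay above all other libraries, while exosome 1 and 3 lay just under saline 2. The means were 30.8 ± 3.35 and 41.4 ± 12.8 FPKM (SD, n = 3 each), a log2 difference of 0.38 (95% interval -0.10 to 0.85, adjusted p = 0.378 in limma). Leaving out exosome 2 gave 0.14. With only exosome 2 kept as the treated library it was 0.85.

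Endothelial markers, whose cells carry the enzyme on their surface, had a higher sum with exosomes. Their summed level over 10 genes was 120.8, 144.9 and 102.1 FPKM with saline and 159.5, 236.4 and 165.6 FPKM with exosomes, and these sums did not overlap. Of the 10 markers, 9 were higher, beside 39.3% of all genes tested, and 1 was lower (Kdr, a VEGF receptor gene, log2 difference -0.29, overlapping). There were 5 that had groups apart with exosomes higher (9.4% of all genes tested did), namely Pecam1, Vwf, Cldn5, Nos3 and Esam. None of the 10 was called by limma and none was at 0 throughout. Exosome 2 was the highest library for the sum as it was for Ace. Per 100 FPKM of endothelial markers Ace stood at 22.9, 23.7 and 29.8 FPKM with saline and at 21.3, 23.8 and 20.6 FPKM with exosomes. This ratio overlapped (exact permutation test, two-sided, p = 0.3, n = 3 each), and the smallest p that 3 against 3 can give is 0.1. The part of endothelium in the Ace values was not tested.

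**Figure D2:**
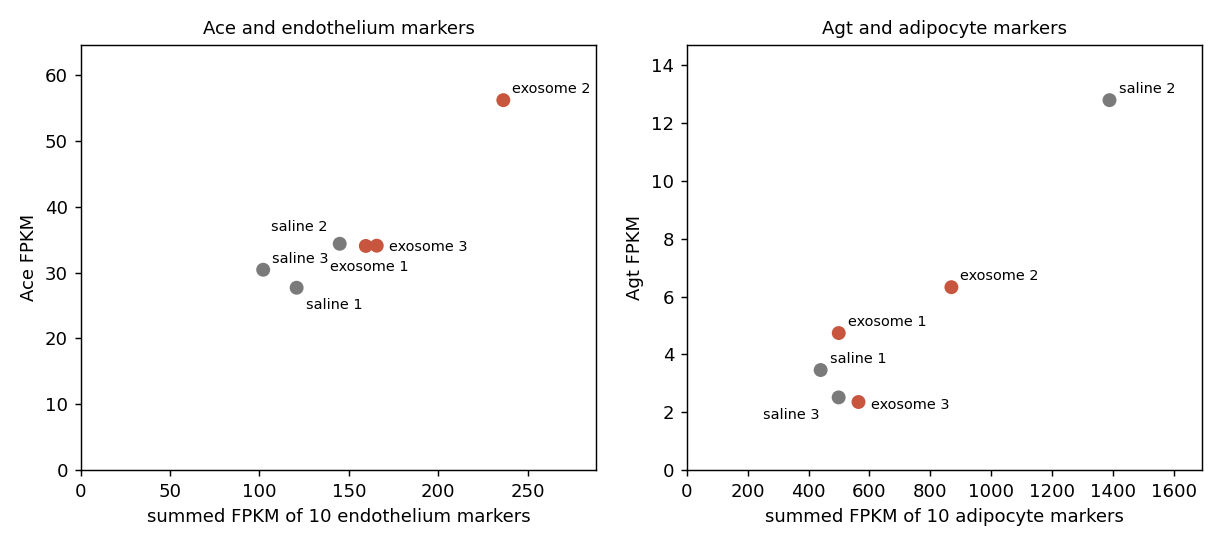
Left, Ace FPKM against the summed FPKM of 10 endothelial markers; right, Agt FPKM against the summed FPKM of 10 adipocyte markers; all axes are linear from 0 and each point is a library, grey for saline and red for exosome. Exosome 2 is highest on both axes at left (236.4 and 56.1 FPKM) and saline 2 on both axes at right (1389 and 12.8 FPKM).

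Agtr1a, the main AT1 receptor gene of rat vessels, stood at 6.68, 8.66 and 8.36 FPKM in the saline libraries and at 5.54, 7.66 and 5.75 FPKM in the exosome libraries. Exosome 1 and 3 lay under all saline values, and exosome 2 lay between saline 1 and saline 3. The means were 7.90 ± 1.06 and 6.32 ± 1.17 FPKM (SD, n = 3 each), with a log2 difference of -0.29 (95% interval -0.66 to 0.09, adjusted p = 0.391 in limma). With exosome 1 and 3 both left out it was -0.03, where the median of all genes tested was 0.03 in place of -0.07.

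Agtr1b, the second AT1 gene, is known mainly from adrenal and pituitary. Its values were 4.23, 1.47 and 5.02 FPKM in saline 1, 2 and 3 against 1.78, 1.78 and 1.70 FPKM in exosome 1, 2 and 3. Saline 1 and 3 lay well above every exosome library, whereas saline 2 lay below them all. The means were 3.57 ± 1.86 and 1.75 ± 0.0476 FPKM (SD, n = 3 each), from 111 to 433 reads per library, and the log2 difference was -0.63 (95% interval -1.38 to 0.11, adjusted p = 0.356 in limma). Without saline 2 the log2 difference was -1.03 with an adjusted p of 0.383, and without saline 3 it was -0.39 (adjusted p = 0.699). It was -0.62 with exosome 1 and 3 both left out. Reads of these paralogs may have been split or misassigned in counting, so the division between them is uncertain.

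The share of AT1 receptor FPKM that came from Agtr1b was 38.7%, 14.6% and 37.5% in saline 1, 2 and 3 and 24.3%, 18.9% and 22.8% in exosome 1, 2 and 3. As counted, most AT1 FPKM was assigned to Agtr1a in every library, and the shares overlapped (exact permutation test, two-sided, p = 0.4, n = 3 each). Mesothelial markers were also highest in saline 1 and 3. Their sum over 4 genes was 26.3, 0.216 and 9.56 FPKM in saline 1, 2 and 3 and 0.228, 0.331 and 4.57 FPKM in exosome 1, 2 and 3, and Upk3b was at 0 in saline 2 and exosome 2. Exosome 3, next in order for these markers, had the next to lowest Agtr1b value. The part of mesothelium in the Agtr1b values was not tested.

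Agtr2 encodes the AT2 receptor, which is abundant before birth and scarce in adult vessels. It stood at 1.56, 1.89 and 5.15 FPKM with saline and at 1.49, 2.21 and 1.49 FPKM with exosomes. Each library held 106 to 362 of its reads. Saline 3 stood alone, and the other 5 libraries lay within 1.49 to 2.21 FPKM. The means were 2.87 ± 1.99 and 1.73 ± 0.414 FPKM (SD, n = 3 each), a log2 difference of -0.40 (95% interval -1.17 to 0.37, adjusted p = 0.545 in limma). Without saline 3 it was -0.01, and without saline 1 it was -0.64. The ratio of AT1 (Agtr1a plus Agtr1b) to AT2 FPKM was 7.01, 5.35 and 2.60 with saline and 4.90, 4.28 and 5.01 with exosomes, and it overlapped.

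Mas1, the receptor for a shortened angiotensin peptide, was near the limit of what these libraries measure well. It stood at 0.754, 0.422 and 0.579 FPKM with saline and at 0.528, 0.510 and 0.470 FPKM with exosomes. Each library held 49 to 99 of its reads. The saline libraries spanned all of the exosome values. The means were 0.585 ± 0.166 and 0.503 ± 0.0295 FPKM (SD, n = 3 each). It was under the mean of 1 FPKM needed for the main test, and with no such minimum its log2 difference was -0.07 (95% interval -0.29 to 0.14, adjusted p = 0.749 in limma).

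Atp6ap2 encodes the prorenin receptor, which is also an accessory subunit of the proton pump V-ATPase. It stood at 86.0, 64.9 and 70.3 FPKM with saline and at 79.0, 75.8 and 76.6 FPKM with exosomes. The saline values lay on either side of the exosome values. The means were 73.7 ± 10.97 and 77.1 ± 1.66 FPKM (SD, n = 3 each), a log2 difference of 0.07 (95% interval -0.21 to 0.36, adjusted p = 0.766 in limma), which was -0.01 without saline 2.

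Lnpep, the insulin-regulated aminopeptidase that binds angiotensin IV and cleaves oxytocin and vasopressin, stood at 2.39, 3.24 and 5.27 FPKM with saline and at 1.96, 3.06 and 1.74 FPKM with exosomes. Saline 3 was the highest library, as for Agtr2, while exosome 2 lay inside the saline range. The means were 3.63 ± 1.48 and 2.26 ± 0.708 FPKM (SD, n = 3 each), a log2 difference of -0.48 (95% interval -1.09 to 0.12, adjusted p = 0.380 in limma). Without saline 3 it was -0.24, and with exosome 1 and 3 both left out it was -0.14. Of the 10 marker sums, that of the pericyte genes alone was highest in saline 3, at 533.5 FPKM against 467.0 to 511.4 FPKM in the other libraries. Its genes did not share this order. Abcc9 and Pdgfrb were highest in saline 3, Kcnj8, Rgs5 and Higd1b were highest elsewhere, and Cspg4 was lowest in saline 3 (65.6 FPKM). The part of pericytes in the Lnpep and Agtr2 values was not tested.

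**Figure D3:**
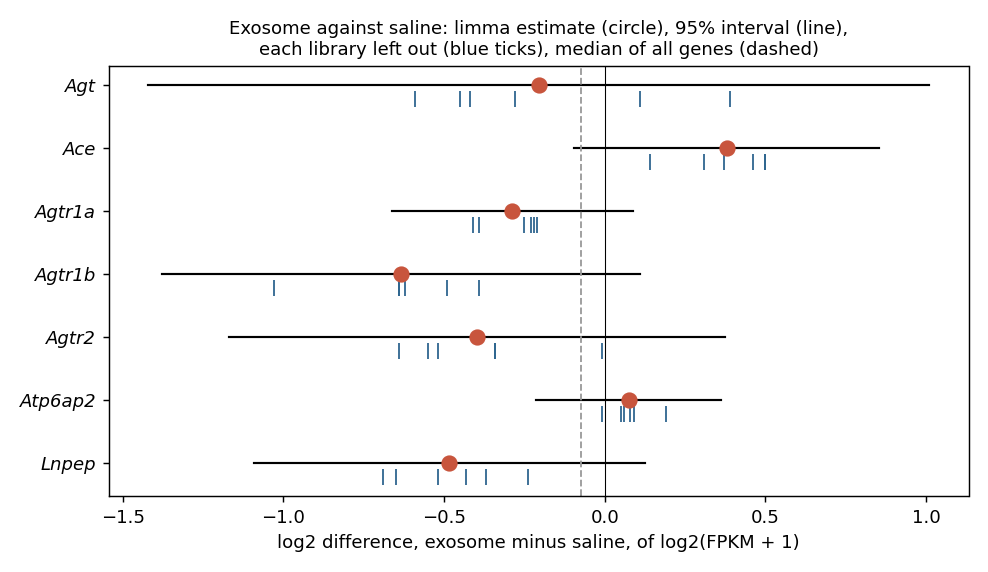
Log2 difference, exosome minus saline on log2(FPKM + 1) (horizontal axis), for the 7 members above the expression minimum; circles are limma estimates, lines their 95% intervals, blue ticks the estimate with each library left out in turn, and the dashed line the median of all genes tested (-0.07). Each interval includes 0, and the ticks of Agt run from -0.59 to 0.39.

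Genes listed for enzymes that form or degrade angiotensins outside the main route were unequally present. Ctsg, the cathepsin G gene, was at 0 in all 6. Cma1, a mast cell chymase gene, ranged from 0 to 1.10 FPKM, with the mast cell marker sum at 1.92 to 4.25 FPKM. Of those 7 markers only Kit, at 1.43 to 2.08 FPKM, was above the expression minimum, and Mcpt1 was at 0 in all 6 libraries. The angiotensin-degrading aminopeptidases were well detected, with Anpep at 18.3 ± 4.398 and 19.2 ± 2.01 FPKM and Enpep at 8.79 ± 2.26 and 9.09 ± 1.66 FPKM in the saline and exosome groups (SD, n = 3 each).

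Of the 23 other angiotensin enzymes, receptors and accessory proteins listed, 22 were in the table and 13 were tested. None passed limma's threshold in either direction and 1, Nln, had an unadjusted p under 0.05, beside 16.0% of all genes tested. Of the 13, 7 (53.8%) were higher, beside 39.3% of all genes tested, and 6 were lower, with a median log2 difference of 0.01. Nln and Ctsd had groups apart with exosomes lower, 2 of 13 where 11.7% of all genes tested did. Nln, the peptidase neurolysin, stood at 9.80, 11.7 and 11.3 FPKM with saline and at 8.14, 9.13 and 9.07 FPKM with exosomes (adjusted p = 0.307 in limma). Ctsd, the lysosomal protease cathepsin D, stood at 199.0 ± 7.03 and 171.9 ± 11.7 FPKM (SD, n = 3 each; adjusted p = 0.344 in limma). Agtrap, which encodes a protein that drives AT1 receptor internalisation, stood at 6.80, 10.3 and 11.5 FPKM with saline and at 5.13, 9.71 and 4.67 FPKM with exosomes. Exosome 2 again lay within the saline range for Agtrap, and its log2 difference was -0.52 (adjusted p = 0.379 in limma), or 0.05 with exosome 1 and 3 both left out. Dpp3, a peptidase that degrades angiotensin II, had a log2 difference of -0.40 (adjusted p = 0.337 in limma). With exosome 1 and 3 both left out it was -0.04, and that of Ctsd was -0.10 in place of -0.21. That of Nln was then -0.23 in place of -0.28.

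Downstream of the AT1 receptor, 28 of 29 listed signalling genes were tested and none passed limma's threshold, while 4 had an unadjusted p under 0.05. Of the 28, 18 (64.3%) were higher, beside 39.3% of all genes tested, and 10 were lower. The median was 0.05, beside -0.07 for all genes tested. The 4 of 28 lie beside 16.0% of all genes tested. Groups were apart with exosomes higher for 3 of 28, beside 9.4% of all genes, and lower for 1 of 28, beside 11.7%. The shares with a low p or with groups apart were thus near or under those of all genes. Rock1, a kinase that sustains smooth muscle contraction, stood at 105.4, 71.4 and 58.4 FPKM with saline and at 229.6, 133.6 and 168.7 FPKM with exosomes. Its lowest exosome library, exosome 2, was still above its highest saline library, saline 1. The log2 difference was 1.17 (95% interval 0.57 to 1.78) with an adjusted p of 0.250 in limma.

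Rock2, the sister kinase, stood at 76.0, 69.5 and 65.4 FPKM with saline and at 134.0, 93.8 and 152.8 FPKM with exosomes. The groups were apart, and as for Rock1 exosome 2 was the lowest treated library (log2 difference 0.82, adjusted p = 0.254 in limma). With exosome 1 and 3 both left out the differences were 0.80 for Rock1 and 0.41 for Rock2. Grk5, a kinase that desensitises G protein-coupled receptors, stood at 20.3, 20.1 and 18.8 FPKM with saline and at 24.4, 25.1 and 26.9 FPKM with exosomes, a small difference with little spread (log2 difference 0.35, adjusted p = 0.256 in limma). Arrb2, the gene of beta-arrestin-2, had groups apart in the other direction, at 5.48 ± 0.828 and 4.205 ± 0.549 FPKM (SD, n = 3 each; adjusted p = 0.341 in limma). Cybb, the NADPH oxidase subunit of phagocytes, stood at 6.0 ± 1.299 and 8.32 ± 1.09 FPKM (adjusted p = 0.304 in limma). The log2 differences of Grk5, Arrb2 and Cybb were 0.35, -0.31 and 0.42. They were 0.33, -0.36 and 0.47 with exosome 1 and 3 both left out. Macrophage markers, whose cells express Cybb, had sums of 85.9 to 97.1 FPKM with saline and 120.4 to 147.8 FPKM with exosomes, with none at 0 throughout. Of the 8 markers, 8 were higher (39.3% of all genes tested were) and 6 had groups apart with exosomes higher (9.4% of all), and limma called none. Their part in the Cybb values was not tested.

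Of 14 V-ATPase subunits, the partners of Atp6ap2, none passed limma's threshold and none had an unadjusted p under 0.05. Of these 12 were lower and 2 (14.3%) higher, where 39.3% of all genes tested were higher. The median was -0.10 beside -0.07 for all genes. Atp6v0c alone had groups apart, 1 of 14 beside 21.1% of all genes tested. Its level was higher with exosomes, at 88.2 ± 6.21 and 104.4 ± 9.03 FPKM (SD, n = 3 each; adjusted p = 0.330 in limma). Atp6v1c1 (log2 difference -0.22), Atp6v1a (-0.21) and Atp6v1h (-0.17) had the next smallest p. With exosome 1 and 3 both left out these were 0.01, 0.01 and 0.0, and Atp6v0c moved from 0.24 to 0.12. The median of all genes tested was 0.03 in that setting, in place of -0.07.

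Of 7 genes of the insulin-responsive vesicle in which Lnpep travels, none passed limma's threshold and 1 had an unadjusted p under 0.05 (16.0% of all genes tested did). Slc2a4, the glucose transporter GLUT4 of that vesicle, stood at 48.4, 44.2 and 43.3 FPKM with saline and at 34.9, 29.4 and 18.5 FPKM with exosomes. The groups were apart, with exosome 3 lowest, 1 of 7 beside 11.7% of all genes with exosomes lower, and the log2 difference was -0.74 (95% interval -1.24 to -0.24, adjusted p = 0.261 in limma). Sort1 (-0.24), Tnks (0.12) and Vamp2 (-0.08) followed. With exosome 1 and 3 both left out, Slc2a4 was at -0.61, Sort1 turned to 0.08 and Tnks to -0.02, while Vamp2 was -0.07.

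**Figure D4:**
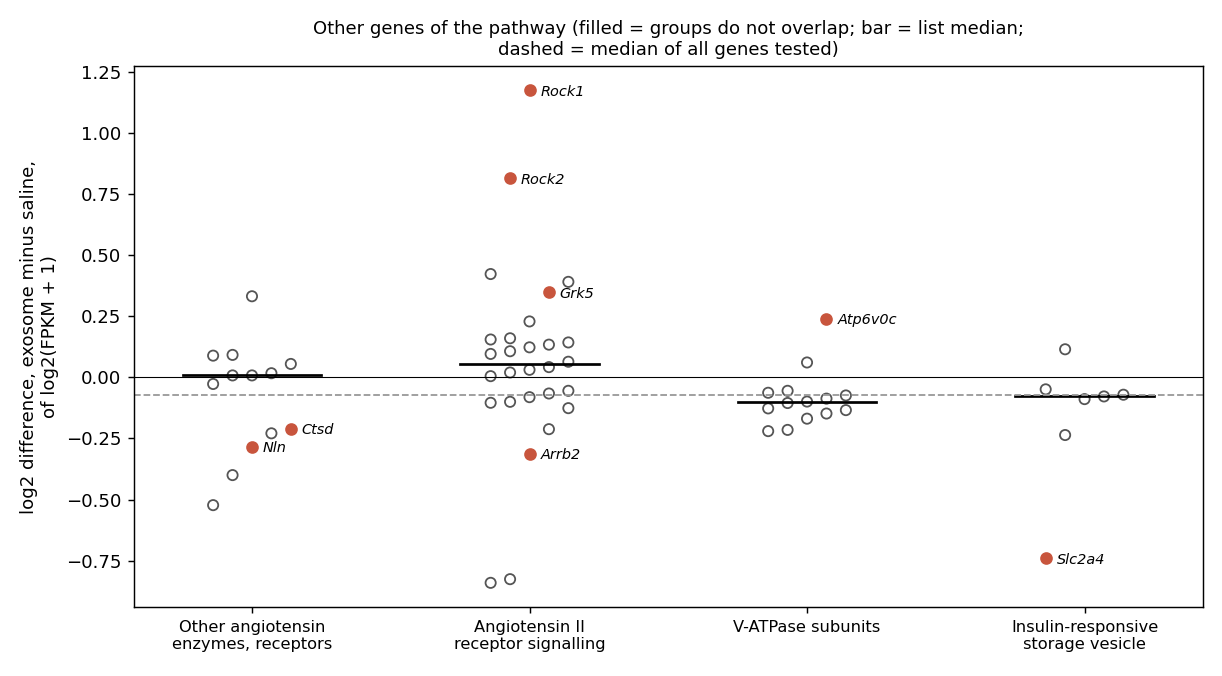
Log2 difference, exosome minus saline on log2(FPKM + 1) (vertical axis), of each tested gene in 4 lists around the renin-angiotensin genes; filled points have groups that do not overlap, black bars are list medians and the dashed line is the median of all genes tested. Rock1 (1.17) and Rock2 (0.82) stand highest and Slc2a4 (-0.74) is the lowest filled point.

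Genes whose pattern over the 6 libraries was most like that of Agt, Ace and Agtr1a were taken by Pearson's r on log2(FPKM + 1). With 11742 genes searched over 6 libraries such values are high by selection and no p is given. For Agt these were Emp2, a membrane protein gene (r = 0.975, Spearman's rank correlation 0.943), Txndc17 (r = 0.974, rank correlation 0.943) and Cox7a2l2 (r = 0.968, rank correlation 1.0). Without saline 2 and exosome 3, the libraries farthest from the median of Agt, r was 0.910, 0.917 and 0.938. For Ace they were Ddx24, an RNA helicase gene (r = 0.993, rank correlation 0.829), Atxn3 (r = 0.986, rank correlation 0.943) and Cfd, the gene of the adipocyte protein adipsin (r = 0.984, rank correlation 1.0). These fell to 0.826, 0.746 and 0.809 without exosome 2 and saline 1. For Agtr1a they included Ccndbp1 (r = 0.998, rank correlation 1.0) and Smc2, a condensin subunit (r = 0.995, rank correlation 1.0), each with r of 0.990 without exosome 1 and 3.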

How the data were processed

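mRNA-seq libraries of aorta (SMARTER kit, per the labels' protocols) were available as FPKM, which the authors computed and deposited in a single table of 24005 symbols with 6 columns, each matching 1 sample title. The submitters' processing notes name DESeq2 1.28.1 without a role. The aligner, counter, strand setting, build and annotation were not given in the sources used here. Overlapping and antisense genes could therefore not be separated. Whole reads were recovered from the FPKM steps for 18430 symbols (100.0% of those above 0, within 0.02 reads). Implied library totals were 28063355 to 44561082 reads. 

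The test was limma 3.58.1 (R 4.3.3) on log2(FPKM + 1), trend moderation, two-sided, without covariates, over 11742 genes (mean FPKM 1 or more), adjusted by Benjamini-Hochberg. Fold changes on this scale understate changes of low genes. The code was tested on simulated libraries. Alternatives were pseudocounts of 0.1 and 0.01, no minimum or a minimum of 5, equal sums, median of ratios, quantile normalization, untrended and robust moderation, library weights, a replicate block, voom on recovered reads, and each library left out. Gene-by-gene weights and leaving out exosome 1 and 3 together were chosen after seeing the data. The members, the 4 pathway lists and the 10 marker lists were chosen with earlier results of these data known. Named were all members, the 4 smallest p and all non-overlapping genes of each pathway list, and the 3 genes most like Agt, Ace and Agtr1a, of which 1 is not reported here. Other genes named (among them Ctsg, Cma1, Anpep, Enpep and the markers) were chosen after their values were seen. Of 151 listed symbols 150 were in the table, and Kng2 was not found. Python 3.11.15, pandas 2.3.3, scipy 1.17.1, biopython 1.88 and matplotlib 3.10.9 were also used.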

Additional observations from a re-analysis of the deposited data

How the results depend on the processing

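Over 20 alternatives the number of members past limma's threshold stayed at 0 except with library weights, where 2 passed, both lower (Agtr1a, adjusted p = 0.0208, and Lnpep, adjusted p = 0.0298). In that setting 3268 genes were called in all and 12 of the 4 pathway lists, the weight of exosome 1 was 9.20 against 0.305 for exosome 2, and the estimate of the weights stopped before it converged. With gene-by-gene weights 618 genes were called in all, no member, and 2 of the pathway lists, Rock1 and Rock2 (adjusted p = 0.0422 each). Quantile normalization called 2 genes in all. Leaving out each library in turn gave 0 to 9 genes in all. Leaving out exosome 1 and 3 together left exosome 2 as a lone treated library, assumed to vary like the saline ones. The median log2 difference of all genes tested was then 0.03, against -0.07 in the main fit, so many genes moved in that setting. The causes were not tested. Of the 7 tested members, Ace, Agtr1a, Agtr1b, Agtr2 and Lnpep kept their sign under every alternative that tested them, while Agt turned in 3 and Atp6ap2 in 1. Replicate numbers are shared between the groups but nothing in the labels pairs them. The deviations of same-numbered libraries correlated at 0.07, 0.10 and -0.17, so the numbers were not taken as pairs. With the replicate block 1 gene was called in all and no member (Ace adjusted p = 0.325). Depth limits Mas1 most among the members.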

Other observations

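The kinin branch, which ACE closes by degrading bradykinin, was represented mainly by its B2 receptor. Bdkrb2 stood at 2.48, 5.14 and 2.38 FPKM in saline 1, 2 and 3 and at 4.25, 4.30 and 4.17 FPKM in exosome 1, 2 and 3. The exosome libraries lay close together, under saline 2 and above saline 1 and 3 (log2 difference 0.33, adjusted p = 0.485 in limma). Bdkrb1, the inducible B1 receptor gene, held 1 to 12 reads per library. Kng1, the kininogen gene, ranged from 0 to 1.57 FPKM and was at 0 in 2 libraries, saline 2 and exosome 3. Mrgprd, which encodes a receptor for a further angiotensin-derived peptide, held 29 to 71 reads per library, with means of 0.597 ± 0.0973 FPKM (saline) and 0.437 ± 0.151 FPKM (exosome; SD, n = 3 each).

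The spread of several members was wider among the saline libraries than among the exosome libraries. The SD of Agtr1b was 1.86 FPKM with saline and 0.0476 FPKM with exosomes, that of Atp6ap2 10.97 and 1.66 FPKM, that of Mas1 0.166 and 0.0295 FPKM, and that of Agtr2 1.99 and 0.414 FPKM. For Ace it was the reverse, at 3.35 and 12.8 FPKM, and slightly so for Agtr1a, at 1.06 and 1.17 FPKM. This difference in spread was noticed in the data, was not set beside that of all genes and was not tested.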
